A study of Drosophila melanogaster with 4 samples.

Results

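In 26 genes of whole Drosophila melanogaster larvae, the listed transcript row that held the largest part of a gene's signal in the hsromega66 mutant was another one than in the control. Where rows with the same annotated transcript name were summed first, an alternative added after seeing the data, 11 of the 26 remained and no other gene was found. The members were chosen from the authors' pooled values by a rule on shares. A gene needed 2 or more listed transcripts (rows of the full table) and a summed FPKM of at least 10 in both genotypes, where FPKM is fragments per unit of transcript length and of mapped fragments. Its row with the highest FPKM had to differ between the genotypes, and the share of the control's leading row in the gene's sum had to be at least 40 percentage points lower in hsromega66. Of 12116 genes in the table, 3024 met the condition on rows and sum and are called eligible below, and 26 of these (0.86%) met the whole rule. Because the rule used the shares of these same values, the shares are given as a description and no test was applied to them.

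The study compared larvae homozygous for the mutant allele hsromega[66] of the long noncoding RNA gene Hsromega with wild-type larvae of the stock Oregon R+, both taken whole at the wandering stage of the third instar. There were 2 libraries of total RNA per genotype, each made from 5 larvae together, and the deposited values hold 1 pooled FPKM per genotype and row. No spread between libraries can therefore be given for any value below. The sources used here do not state the sex of the larvae or whether the stocks share a genetic background, so effects of the allele and of the stock cannot be told apart. Hsromega itself was listed at 0.29 FPKM in hsromega66 and at 232 FPKM in control, although both of its rows had a q of 0.998 in the authors' deposited table. Over all genes, 1.4% were higher and 0.908% lower in hsromega66 at a deposited q of at most 0.05. Among marker lists of the tissues in a whole larva, the 8 gut genes summed to 5765 FPKM in hsromega66 and 1844 FPKM in control, with 6 higher and 1 lower at that q. No switched gene was on any of the marker lists, beside 0.86% of all eligible genes. The lists held few eligible genes, at most 8 (muscle), with 1 for gut and 0 for salivary gland, so nothing is read from this.

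A gene can give several mRNAs by starting transcription at another promoter, by joining other splice sites, or by ending at another polyadenylation site. Splice sites are chosen by the spliceosome together with SR proteins and hnRNPs, which bind the nascent RNA. Nuclear Hsromega transcripts organise the omega speckles, in which many hnRNPs are held. Some transcript choices change the protein, and others change only the untranslated ends, which act on translation, stability and location of the mRNA.

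Among the eligible genes, 287 (9.49%) had another leading row in hsromega66. In the 261 that did not reach the threshold, the share of the control's leading row differed by a median of 12.4 points. In the 26 members the fall ran between 40.3 and 99.9 points, with a median of 48.9. Just inside the threshold stood Ranbp9 (19.0% in hsromega66 and 59.3% in control, a fall of 40.3 points), CG12895 (40.5 points) and CG8100 (41.0 points). Just outside it, among genes with another leading row, stood CG31637 (43.3% in hsromega66 and 81.6% in control, 38.3 points), CG4716 (37.9 points) and CG1317 (37.8 points). The values on both sides of the threshold lie close together.

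**Figure D1:**
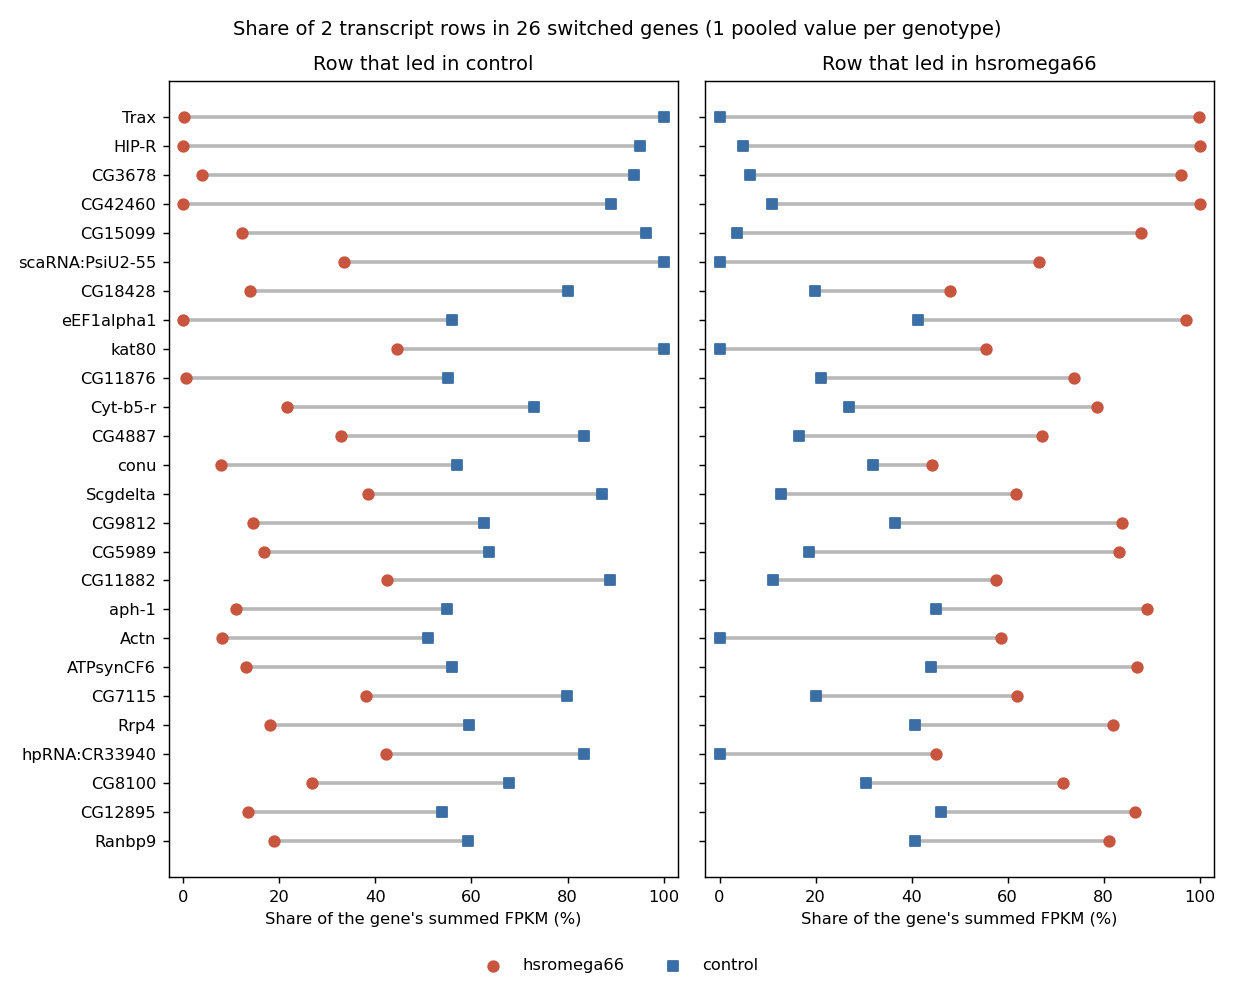
Share of the gene's summed FPKM, in percent, held by the row that led in control (left) and by the row that led in hsromega66 (right) for the 26 genes, ordered by the fall in the left panel; circles are hsromega66 and squares control, 1 pooled value each. In Trax nearly the whole signal stood in one row in hsromega66 and in the other row in control, while in Ranbp9 the control's leading row held 19.0% in hsromega66 and 59.3% in control.

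What differs between the leading rows could be read from the annotation for 10 of the 26 genes. In these, the leading rows matched different annotated transcripts, through the nearest transcript that the authors' table gives for each row. In 14 further genes, both leading rows carried the name of the same annotated transcript. These were Trax, CG3678, CG42460, scaRNA:PsiU2-55, Cyt-b5-r, CG4887, CG9812, CG11882, aph-1, ATPsynCF6, Rrp4, CG8100, CG12895 and Ranbp9. None of them met the rule where rows of the same name were summed. For all 14, the annotation holds at least 1 other transcript with the same introns and the same coding exons. That transcript differed only at the 3′ end in 10 genes, by 32 to 687 bases, and only at the start in 4 genes, by 15 to 90 bases. The table does not say which row is which of these. For the 14 genes the leading rows are therefore known only to share an intron chain, as far as the authors' match code says. The exception is scaRNA:PsiU2-55, whose matched transcript is noncoding with 1 exon, so that it has no introns or coding exons to compare. Of the remaining 2 genes, Actn had leading rows with junctions outside the annotation, and the control's leading row of CG18428 matched a transcript name that the annotation used here does not hold. Pairs under 1 transcript name made up 53.8% of the members and 24.9% of the 261 genes with another leading row below the threshold. Over all eligible genes, 47.3% had 2 rows under 1 transcript name. Only 2 rows were listed for 17 of the 26 members and for 48.8% of the eligible genes. No test was made of these differences, since the members were chosen on the shares, and nothing is read from them.

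**Figure D2:**
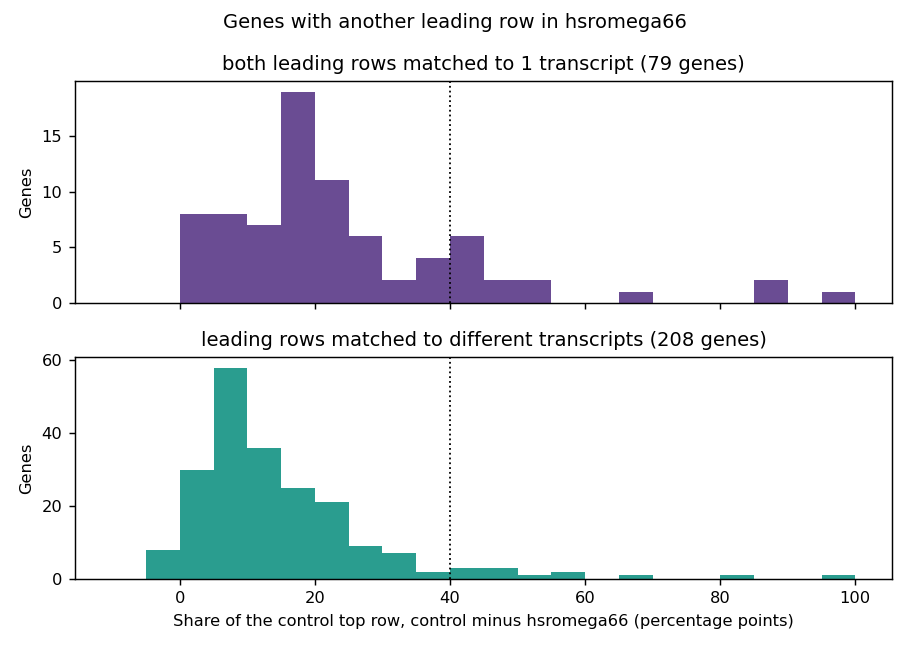
Number of eligible genes with another leading row in hsromega66, by the fall of the control's leading share (percentage points, control minus hsromega66), for 79 genes whose leading rows matched 1 transcript (top) and 208 whose leading rows matched different transcripts (bottom); the dotted line is the threshold of the rule. Of the genes at or past 40 points, 14 lie in the upper panel.

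Few single rows passed the authors' own test, in these genes as in the whole table. Only hpRNA:CR33940, 1 of the 26, had a row with a q of at most 0.05 in the authors' deposited table, beside 1.55% of the eligible genes and 2.31% of all genes. Of the members' 71 rows it was 1, beside 1.31% of all rows. A count of 1 is too small to be set apart from these shares, and nothing is read from it. At an unadjusted deposited p of at most 0.05, it was 11 of 26 members, beside 7.8% of the eligible genes, and 12 of 71 rows, beside 2.42% of the rows of eligible genes. That difference follows a choice of members on the same values and is not read further. Both leading rows had such a p in 1 gene, CG4887. In what follows, "fell" is used of a single row only for the 1 row that passed, and all other rows are given as listed values. The themes that order the members below are not gene lists. No share over eligible genes stands beside the counts of members per theme, and nothing is read from them.

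Of genes for protein synthesis and folding, eEF1alpha1 had by far the largest sum. It encodes the elongation factor that brings aminoacyl-tRNA to the ribosome (FBgn0284245; 2R, 11891135 to 11895762, plus strand). Its row eEF1alpha1-RD was listed at 0.742 FPKM in hsromega66 and at 2446 FPKM in control, and eEF1alpha1-RA at 4687 FPKM in hsromega66 and 1807 FPKM in control. A further row, eEF1alpha1-RC, stood at 135 FPKM in hsromega66 and 114 FPKM in control. RD is annotated to begin 1420 bases downstream of RA, directly upstream of the shared coding exon, and its own sequence there is only 13 bases, while RA has an exon of 63 bases of its own. All have the same coding length of 1389 bases. The gene's sum was 4823 FPKM in hsromega66 and 4367 FPKM in control, which differ far less than the rows do. The lowest p of the gene in the authors' deposited table was 0.113.

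HIP-R, which encodes a co-chaperone of Hsc70 (FBgn0029676; X, 3789969 to 3792477, plus strand), had the second largest fall. HIP-R-RB was listed at 0.000389 FPKM in hsromega66 and at 24.0 FPKM in control, and HIP-R-RD at 23.5 FPKM in hsromega66 and 1.23 FPKM in control. The annotated transcripts share start, end and coding exons. They differ in 1 intron of 59 bases in the 5′ untranslated region, which RD splices out and RB keeps. The gene's near copy HIP, its neighbour on X, stood at 11.7 FPKM in hsromega66 and 13.5 FPKM in control, and how reads were divided between the copies is uncertain. CG3678, named EMC2B in the annotation, encodes a subunit of the complex that inserts membrane proteins at the endoplasmic reticulum. Both of its rows matched EMC2B-RB: one was listed at 0.633 FPKM in hsromega66 and 24.6 FPKM in control, and the other at 15.6 FPKM in hsromega66 and 1.64 FPKM in control. The second annotated transcript ends 128 bases away. MESK4, whose exons overlap those of CG3678 on the other strand, stood at 1.66 FPKM in hsromega66 and 0.269 FPKM in control.

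**Figure D3:**
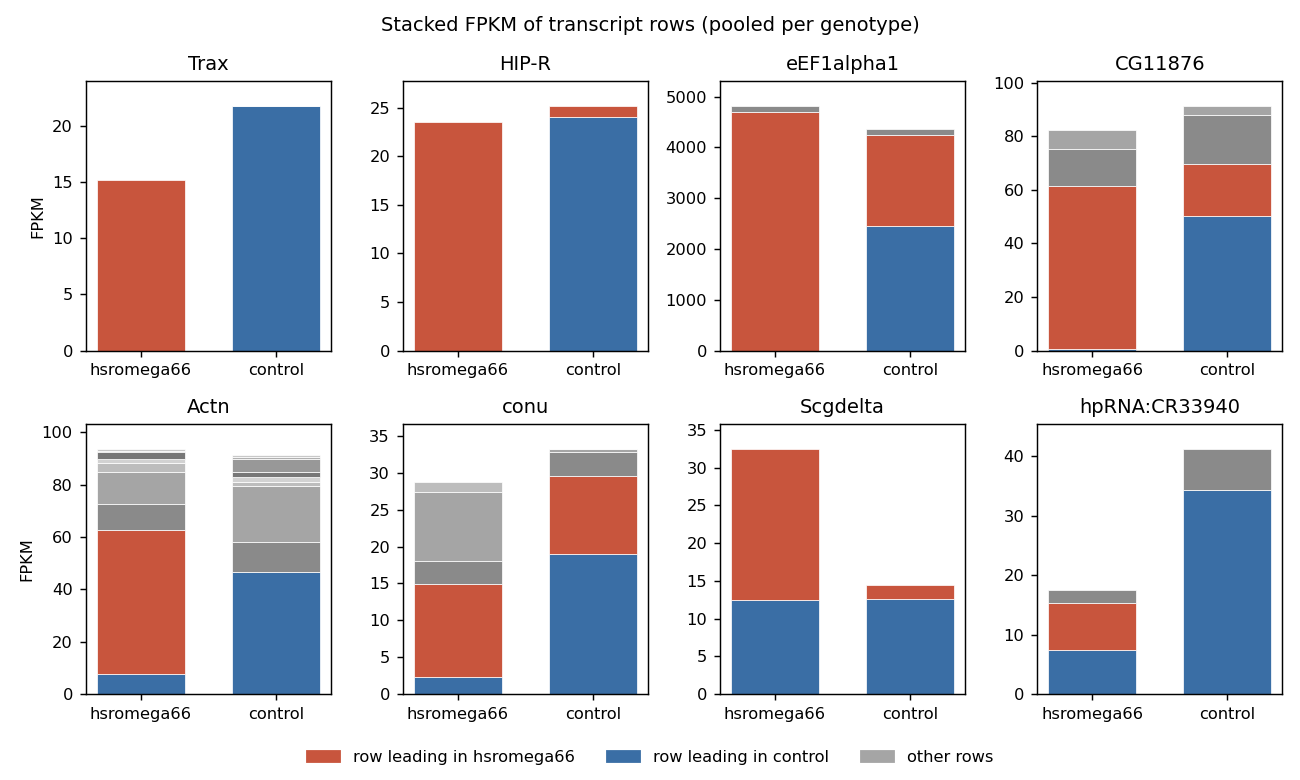
FPKM of the listed transcript rows of 8 genes, stacked, with hsromega66 left of control; 1 pooled value per genotype and row, with no error. The height of the stack is the gene's sum, such as 4823 FPKM in hsromega66 and 4367 FPKM in control for eEF1alpha1; red marks the row leading in hsromega66, blue the row leading in control and grey the other rows.

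Mitochondrial energy metabolism was represented by 3 genes. The log2 ratio of the sum, on the log2(FPKM + 1) scale, was -0.15 in CG11876, -0.42 in ATPsynCF6 and -0.10 in CG12895. CG11876, named Pdhb in the annotation, encodes the beta subunit of the E1 enzyme of the pyruvate dehydrogenase complex (3R, 29113071 to 29116197, plus strand). Pdhb-RD was listed at 0.508 FPKM in hsromega66 and 50.4 FPKM in control, and Pdhb-RA at 60.8 FPKM in hsromega66 and 19.3 FPKM in control, with a p of 0.0183 and a q of 0.598 for RA in the authors' deposited table. RA starts 137 bases upstream, with an exon of 70 bases joined to the exon that RD begins with. RD holds 1 base that RA lacks, and both have the same coding exons. The rows Pdhb-RC and Pdhb-RB, with a shorter coding sequence of 819 bases, stood at 13.9 and 7.14 FPKM in hsromega66 and at 18.0 and 3.69 FPKM in control.

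ATPsynCF6 encodes coupling factor 6 of the ATP synthase. One row was listed at 12.5 FPKM in hsromega66 and 71.5 FPKM in control (p = 0.0262, q = 0.757 in the authors' deposited table), and the other at 82.7 FPKM in hsromega66 and 56.1 FPKM in control. Both matched ATPsynCF6-RC, and the transcript with the same introns ends 60 bases away. CG12895, a succinate dehydrogenase assembly factor gene, had rows at 1.81 and 11.7 FPKM in hsromega66, against 7.82 and 6.67 FPKM in control, and the annotated ends lie 74 bases apart. Of the 81 genes listed by symbol for oxidative phosphorylation, 51 were eligible, 3 had another leading row, beside 9.49% of all eligible genes, and ATPsynCF6 was the 1 member, beside 0.86%, so nothing is read from these counts.

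Muscle and cytoskeleton gave 3 members, and conu is described after them. Actn encodes alpha-actinin, which crosslinks actin filaments at the Z discs of muscle (FBgn0000667; X, 2023822 to 2042311, minus strand). It had 10 listed rows, all of them with at least 1 junction that differs from the nearest annotated transcript. The row nearest to Actn-RG was listed at 7.53 FPKM in hsromega66 and 46.5 FPKM in control, and the row nearest to Actn-RH at 55.0 FPKM in hsromega66 and 0.103 FPKM in control. The sum over all rows was 93.7 FPKM in hsromega66 and 91.2 FPKM in control. The lowest p of the gene was 0.205 in the authors' deposited table. Its exons overlap those of usp on the same strand and those of east and CG4313 on the other, so the division of reads is uncertain.

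Scgdelta encodes delta-sarcoglycan of the dystrophin complex (FBgn0025391; X, 1735945 to 1754065, minus strand). In this gene the control's leading row was listed at nearly the same level in both genotypes: Scgdelta-RA stood at 12.5 FPKM in hsromega66 and 12.6 FPKM in control, and Scgdelta-RE at 20.04 FPKM in hsromega66 and 1.85 FPKM in control. The gene's sum was therefore higher in the mutant, 32.5 FPKM in hsromega66 and 14.4 FPKM in control. The transcripts have the same start and coding exons. RE skips the terminal part of RA's last exon and joins a 3′ exon of 1219 bases across an intron of 9110 bases, so that the transcripts end 9933 bases apart. The lowest p was 0.174 in the authors' deposited table.

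kat80 encodes the regulatory subunit of katanin, which severs microtubules (FBgn0040207; X, 16267007 to 16276180, minus strand). kat80-RA was listed at 5.91 FPKM in hsromega66 and 10.8 FPKM in control, and kat80-RC at 7.37 FPKM in hsromega66 and at 0 in control. The annotated transcripts differ by 3 bases at 1 splice site, which is 1 codon (coding lengths of 2454 bases in RC and 2457 bases in RA). The gene conu (2R, 4744348 to 4758048, plus strand) is given here without a role, and its 5 rows all have the same coding length of 1887 bases. conu-RD was listed at 2.26 FPKM in hsromega66 and 18.9 FPKM in control, while conu-RA, the leading row of hsromega66, differed little, with 12.7 FPKM in hsromega66 and 10.6 FPKM in control. Of the other rows conu-RI was the largest in hsromega66, at 9.36 FPKM in hsromega66 and 0.414 FPKM in control. conu-RB stood at 3.14 FPKM in hsromega66 and 3.31 FPKM in control, and conu-RG at 1.31 FPKM in hsromega66 and 0 in control. The leading pair held 51.998% of the sum in hsromega66 and 88.8% in control. RA and RD begin 117 bases apart with untranslated exons of their own, of 173 and 54 bases.

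**Figure D4:**
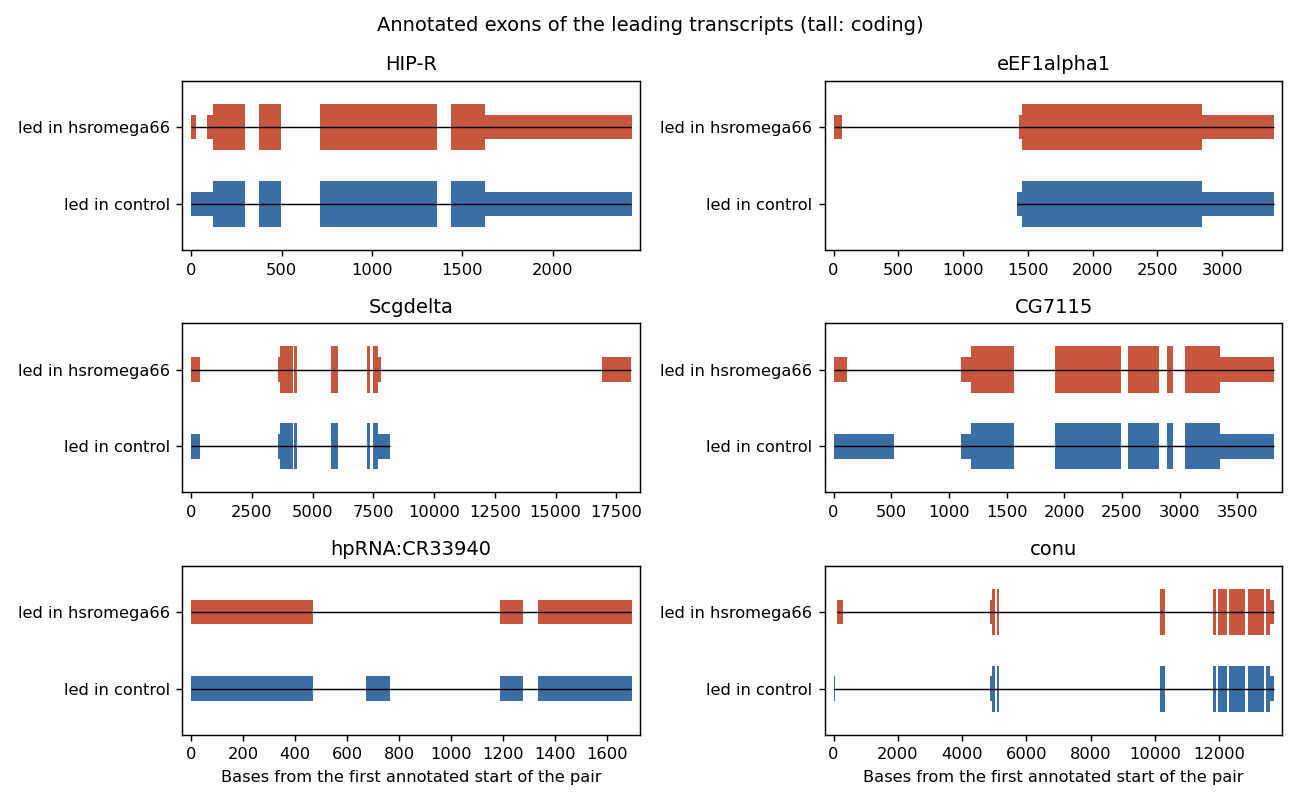
Annotated exons of the transcripts that led in hsromega66 (upper, red) and in control (lower, blue) for 6 genes, to scale in bases from the first annotated start of the pair and drawn in the direction of transcription; tall boxes are coding and low boxes untranslated or noncoding. The pairs differ in a 5′ untranslated intron (HIP-R), in the start (eEF1alpha1, conu), in the 3′ end (Scgdelta), in a splice site of the untranslated first exon (CG7115) or in 1 exon of 93 bases (hpRNA:CR33940).

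Levels of muscle markers are given beside these values. All 12 muscle markers in the table were lower in hsromega66, with log2 ratios between -0.88 and -0.27. Their summed level was 6803 FPKM in hsromega66 and 9879 FPKM in control. The deposited Cuffdiff q was at most 0.05 for 0 of them, beside 2.31% of all genes. The unadjusted Cuffdiff p was at most 0.05 for 1 of the 12, beside 7.8% of the eligible genes, of which the list held 8. Lower listed values were also found in other lists: all 9 haemocyte markers, 6 of 7 salivary gland markers and all 13 glycolysis genes were also lower in hsromega66, with median log2 ratios of -0.58, -0.72 and -0.58. At that q, 0 haemocyte, 1 salivary gland and 1 glycolysis gene were lower, beside 0.908% of all genes. Such a p was found for 4, 3 and 4 genes of these lists. Only 5, 0 and 10 of their genes were eligible, so the share of 7.8% is not their background. The share over all genes at that p is not given here, and nothing is read from these counts. In bulk larvae, fewer cells of a type and less RNA per cell cannot be told apart. Actn and Scgdelta did not follow the muscle markers in their sums (log2 ratios of 0.04 and 1.12), and the part of muscle content in their shares was not tested. Of the muscle marker list 8 genes were eligible. Another leading row was found in 1 of them, beside 9.49% of all eligible genes, and 0 were members, beside 0.86%. Counts this small are near those shares, and nothing is read from them.

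RNA processing and small RNA pathways gave 4 members, among them the gene with the largest fall and the 1 row that passed the deposited threshold. Trax encodes a partner of translin, with which it forms an RNase that helps activate the RNA-induced silencing complex (FBgn0038327; 3R, 15361692 to 15362850, plus strand). One row was listed at 0.0171 FPKM in hsromega66 and 21.8 FPKM in control, and the other at 15.2 FPKM in hsromega66 and 0.00078 FPKM in control. Both rows matched Trax-RC, and the only other annotated transcript, Trax-RB, ends 32 bases away. The gene's sum was 15.2 FPKM in hsromega66 and 21.8 FPKM in control. The lowest p was 0.0599 in the authors' deposited table. CG6171, which overlaps Trax on the other strand, stood at 3.3 FPKM in hsromega66 and 11.6 FPKM in control, and the sources used here do not say whether counting used strand.

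hpRNA:CR33940 is a noncoding gene of the hairpin class, whose transcripts fold back and are cut by Dicer-2 into small interfering RNA (FBgn0062928; 3L, 19486745 to 19488439, minus strand). Its main transcript hpRNA:CR33940-RD fell to 7.41 FPKM in hsromega66, against 34.4 FPKM in control, with a q of 0.00983 in the authors' deposited table. hpRNA:CR33940-RE was listed at 7.91 FPKM in hsromega66 and 0.00805 FPKM in control, and hpRNA:CR33940-RF at 2.21 FPKM in hsromega66 and 6.88 FPKM in control. RE lacks the exon of 93 bases that RD holds. In hsromega66 the leading rows RE and RD were close, at 45.1% and 42.3% of the sum. The gene's sum was the lowest of all members relative to control, at 17.5 FPKM in hsromega66 and 41.3 FPKM in control, a log2 ratio of -1.19. CG32212, whose exons overlap those of hpRNA:CR33940 on the other strand, stood at 1.66 FPKM in hsromega66 and 0.717 FPKM in control.

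Rrp4 encodes an RNA-binding cap subunit of the exosome, the main 3′-to-5′ RNA degrading complex. Its rows, both matched to Rrp4-RA, stood at 2.41 and 10.996 FPKM in hsromega66, against 8.34 and 5.71 FPKM in control. The annotated ends lie 88 bases apart. scaRNA:PsiU2-55 is a Cajal body RNA that guides pseudouridylation of the U2 spliceosomal RNA, and its gene lies within Prp8 on the same strand. Its rows stood at 11.9 and 23.6 FPKM in hsromega66, against 61.6 FPKM and a listed 0 in control. The annotated transcript is 178 bases long and the other begins 15 bases away.

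Signalling, transport and lipid metabolism gave 4 members. aph-1 encodes a subunit of the gamma-secretase that cleaves Notch within the membrane. Its rows, both matched to aph-1-RB, stood at 2.22 and 18.0 FPKM in hsromega66, against 10.498 and 8.6 FPKM in control, and the annotated ends lie 127 bases apart. CG7115 encodes a protein phosphatase of the PP2C family. CG7115-RA stood at 8.47 FPKM in hsromega66 and 17.7 FPKM in control, and CG7115-RB at 13.8 FPKM in hsromega66 and 4.45 FPKM in control. The transcripts share start, end and coding exons. RB splices from an earlier donor site and lacks 408 bases of RA's untranslated first exon. The gene overlaps Rack1 on the other strand, a ribosomal protein gene at 1175 FPKM in hsromega66 and 1087 FPKM in control.

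Ranbp9, named Ipo9 in the annotation, encodes the nuclear import receptor importin 9. Its rows stood at 3.09 and 13.2 FPKM in hsromega66, against 10.7 and 7.35 FPKM in control, and the annotated starts lie 68 bases apart. Cyt-b5-r encodes a cytochrome b5-related protein and had the largest sum relative to control, at 97.0 FPKM in hsromega66 and 22.7 FPKM in control, a log2 ratio of 2.05. One of its rows was listed at 76.1 FPKM in hsromega66 and 6.11 FPKM in control (p = 0.0151, q = 0.529 in the authors' deposited table), and the control's leading row at 20.8 FPKM in hsromega66 and 16.6 FPKM in control. Both rows matched Cyt-b5-r-RB, and the other annotated transcript ends 92 bases away.

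Among 8 genes known here by CG number alone, 2 changed the coding sequence between the leading rows. In CG15099 (2R, 18836821 to 18846619, minus strand), CG15099-RB was listed at 3.25 FPKM in hsromega66 and 27.8 FPKM in control (p = 0.0133, q = 0.485 in the authors' deposited table), and CG15099-RA at 23.2 FPKM in hsromega66 and 1.078 FPKM in control. RA's first exon is 75 bases longer at its donor site. Its annotated coding sequence, of 7797 bases, is 252 bases shorter than the 8049 bases of RB, or 84 codons. CG15083, whose exons overlap those of CG15099 on the other strand, stood at 41.4 FPKM in hsromega66 and 61.1 FPKM in control, so the division of reads is uncertain. In CG5989 (3L, 8602411 to 8604149, minus strand), CG5989-RB stood at 2.45 FPKM in hsromega66 and 12.3 FPKM in control, and CG5989-RA at 12.1 FPKM in hsromega66 and 3.6 FPKM in control. A further transcript, CG5989-RC, was listed at 0 in hsromega66 and 3.4 FPKM in control. RA keeps 6 more coding bases than RB at 1 splice site, which is 2 codons.

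CG42460 had the second largest sum of the members (2L, 3387882 to 3388496, minus strand). Its rows, both matched to CG42460-RB, stood at 0 and 634 FPKM in hsromega66, against 173 and 21.3 FPKM in control, and the annotated ends lie 142 bases apart. The sum was 634 FPKM in hsromega66 and 194 FPKM in control. In CG9812 the rows stood at 20.9 and 121 FPKM in hsromega66, against 99.8 and 58.5 FPKM in control. CG8100 had the lowest q of the pairs under 1 transcript name, 0.0783 in the authors' deposited table, for a row at 71.8 FPKM in hsromega66 and 21.9 FPKM in control. Its control-leading row stood at 26.9 FPKM in hsromega66 and 48.6 FPKM in control, and its 3 annotated ends span 687 bases.

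The last 3 of these genes had sums of at most 22.1 FPKM. CG4887 held rows at 4.08 and 8.32 FPKM in hsromega66, against 9.48 and 1.88 FPKM in control, and in the authors' deposited table their p-values were 0.0225 and 0.0484. CG11882 held rows at 6.98 and 9.46 FPKM in hsromega66, against 19.6 and 2.48 FPKM in control. In CG18428 the leading row of control stood at 2.27 FPKM in hsromega66 and 13.3 FPKM in control, CG18428-RA at 7.81 FPKM in hsromega66 and 3.3 FPKM in control, and a row with the same transcript name as the first at 6.23 FPKM in hsromega66 and 0 in control. Summed by name, the control's leading transcript of CG18428 was still the larger one in hsromega66. CG13605, whose exons overlap those of CG18428 on the other strand, stood at 15.3 FPKM in hsromega66 and 15.2 FPKM in control. The division of reads is therefore uncertain.

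Over the 10 pairs of different annotated transcripts, 3 differed in the start by over 100 bases (eEF1alpha1, CG11876 and conu) and 1 in the end (Scgdelta). The coding exons differed in 3 (CG15099, kat80 and CG5989). They were the same in 6 others, and 1 pair was noncoding. The transcript leading in hsromega66 was the longer one in 6 pairs and the shorter one in 4. In 20 of the 26 genes, the leading pair held at least 95% of the sum in both genotypes, and 17 had no other listed row. With 2 rows, a lower share of one is by construction a higher share of the other. In 9 genes, at least 1 of the leading rows held under 1% of the sum in the genotype where it did not lead, and in Trax both did.

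The gene sums were not used to choose the members beyond the minimum. The median log2 ratio of the sum was -0.10 over the members and 0.01 over all eligible genes, and 20 of 26 members and 2678 of 3024 eligible genes (88.6%) lay within 0.5 of 0. The sum was higher in hsromega66 in 10 members and lower in 16. The members' sums had a median of 22.9 FPKM in hsromega66 and 24.0 FPKM in control, against 30.1 FPKM in hsromega66 and 29.9 FPKM in control over the eligible genes. The members lay on X (4), 2L (5), 2R (7), 3L (3) and 3R (7). The eligible genes lay there in numbers of 507, 596, 617, 574 and 647. The member nearest to Hsromega on 3R was ATPsynCF6, 2037380 bases away. Exons of 7 members overlapped those of another listed gene, and so did those of 922 of the 3024 eligible genes (30.5%).

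**Figure D5:**
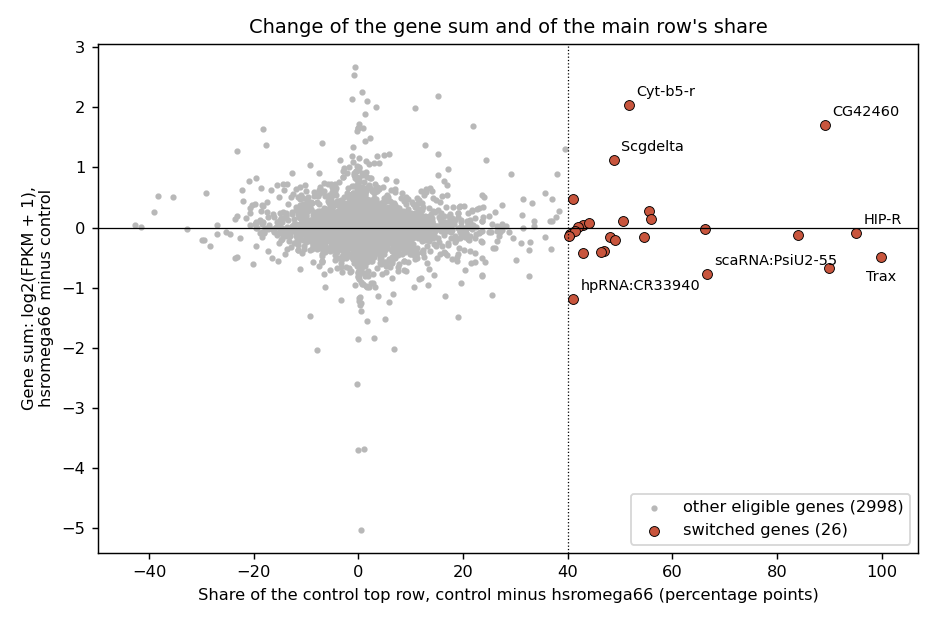
Difference of the gene sum, as log2(FPKM + 1) of hsromega66 minus control, against the fall of the control's leading share in percentage points, for the 26 switched genes (red) and 2998 other eligible genes (grey); each point is a gene with 1 pooled value per genotype, and the dotted line is the threshold. Most members lie near 0 on the vertical axis; Cyt-b5-r at 2.05, CG42460 at 1.70 and Scgdelta at 1.12 lie highest, and hpRNA:CR33940 at -1.19 lowest.

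A list of genes linked to the choice of transcripts held hnRNPs and other genes linked to omega speckles such as the chromatin remodeller Iswi. It also held SR proteins, other splicing factors, genes of the sex determination pathway with its targets dsx, fru and msl-2, and factors of 3′ end choice. The list held no group of factors for the choice of the transcription start. Of its 52 genes in the table, 0 had a deposited Cuffdiff q of at most 0.05, beside 2.31% of all genes. An unadjusted Cuffdiff p of at most 0.05 was found for 0 of the 52, beside 7.8% of the eligible genes, of which the list held 33. This difference was not tested. The log2 ratios of the 52 genes lay between -0.40 and 0.56 (fru), with a median of -0.05, beside -0.01 over all 12116 genes. The hnRNP genes Hrb87F and Hrb98DE, whose products occupy omega speckles, stood at 51.8 and 48.7 FPKM in hsromega66, against 64.6 and 57.6 FPKM in control. Of the 52 genes, 33 were eligible, 4 had another leading row (Rb97D, heph, tra2 and mbl), beside 9.49% of all eligible genes, and 0 were members, beside 0.86%. Counts this small are near those shares, and nothing is read from them. The nearest to the threshold was mbl, the muscleblind splicing factor, whose control-leading row held 38.2% of the sum in hsromega66 and 57.2% in control.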

How the data were processed

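Per the labels' protocols, total RNA of whole larvae was depleted of ribosomal RNA and sequenced as paired reads of 100 bp. The submitters' processing notes name Cuffdiff 2.1.1, Cufflinks, Bowtie and TopHat, and build dm6. For 21529 transcript rows the authors deposited FPKM, 1 value for both libraries of a genotype. The authors' deposited table also gives a log2 ratio, a p-value and a q-value per transcript. Depth per library is unknown and no error, interval or test between libraries could be computed. The log2 column matched the FPKM ratio within 5.14e-05.

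Shares were computed per gene from FPKM as deposited, which is per length, and checked on simulated tables. Sums were compared as log2(FPKM + 1), which understates changes of low genes. Transcript names were looked up in Ensembl 115 (BDGP6.54, dm6 coordinates), where 21414 rows matched. That annotation may be later than the authors' own. Of all rows, 4570 share the transcript name with another row of their gene. The members and lists were chosen with earlier results of these data known. By the naming rule, the largest sums and falls, called genes, list members and genes beside the threshold were named. The rest of the 26 were named with all values in view. Sequences were not used here. Python 3.11.15, numpy 2.4.6, pandas 2.3.3 and matplotlib 3.10.9 were used.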

Additional observations from a re-analysis of the deposited data

How the results depend on the processing

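The number of switched genes followed the limits of the rule. It was 47 with a minimum sum of 5 FPKM, 13 with 20 FPKM and 146 with none. It was 41 with a fall of at least 0.3 and 12 with at least 0.5. As a share of eligible genes, 0.86% became 3.11% with no minimum sum, 1.36% at 0.3 and 0.397% at 0.5. There were 4 settings added after seeing the data. Summing rows of the same transcript name left 11 genes (0.478%), all of them members, and asking for a deposited p of at most 0.05 also left 11. Leaving out genes that overlap another listed gene left 19. Using only rows whose match code gives the intron chain of an annotated transcript, where the ends may differ, left 25. The count stayed between 24 and 26 with length-weighted shares, without short transcripts, by locus, and with a rise of the hsromega66 leading row of at least 0.4, where 24 of 26 genes were shared. The 1 gene with a deposited q of at most 0.05 became 11 at a p of at most 0.05, 2 at a q of at most 0.1, and 0 with a fall of at least 0.5 or a minimum sum of 20 FPKM. Starts over 500 bases apart were found in 1 pair. The transcript leading in hsromega66 was longer by at least 100 bases in 2 pairs, and longer in 3 pairs with a fall of at least 0.5. No paired analysis was possible because each genotype has 1 pooled value, and for the same reason no library could be left out. FPKM carries no depth, so the counting error of rows near 0 is unknown.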

Other observations

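A leading row of control that held at least 40 points more of the gene's sum in hsromega66 was found in 2 eligible genes, which were chosen after their values were seen. This is not a mirror of the rule, since the row was chosen at its highest in control and no change of leading row was asked for. The number is therefore not set against the 26 members. YL-1 was listed at 12.9 FPKM in hsromega66 and 12.5 FPKM in control, and its leading row held 93.7% of the sum in hsromega66 and 51.0% in control. Ric, a Ras-like GTPase gene, was listed at 12.5 FPKM in both genotypes, and its leading row held 100.0% in hsromega66 and 58.3% in control. In both genes the listed rows matched 1 transcript name. No row of either gene had a q under 0.998 in the authors' deposited table.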
